A study of Mus musculus with 15 samples.

Results

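The genes described here encode the proteins of the mitochondrial ribosome, named Mrpl for its large subunit and Mrps for its small subunit. Members were all genes with such a symbol and a number that were measured under 1 gene symbol, each by its brightest probe set, judged by the mean of all arrays. The rule found 76 members, 47 Mrpl and 29 Mrps genes, among 18193 genes measured. Mrpl30 and Mrpl53, the remaining 2 of 78 protein-coding genes with such names in the RefSeq table, were measured by probe sets with several names and are not among the members. Within this rule, no expression value other than the choice of the brightest probe set was used to pick the members. The rule itself was chosen with earlier results of these data known.

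The RNA came from spleens of mice with acute myeloid leukemia (AML), measured on 15 Affymetrix Mouse Genome 430 2.0 arrays. All 15 samples carried the same genotype, NRASG12V/Mll-AF9: an activated NRAS transgene that doxycycline shuts down, and the Mll-AF9 fusion, which every group shares. The recipients were SCID/Beige mice, which lack most lymphocytes and had received the leukemia cells by tail vein injection. The RAS-OFF groups are 2 doxycycline-treated samples each at 48, 60, 72, 84 and 96 h, 10 in all, and the RAS-ON group is 5 vehicle-treated samples at 0 h, each from spleen. The 15 samples hold no vehicle-treated sample at the later times, so doxycycline, NRASG12V loss and time since 0 h cannot be told apart. The age of the mice, the promoter of the transgene and the number of leukemia clones are not given in the sources read for these samples. Nor do the labels say that replicates are separate animals; the p-values then reflect only how these samples scatter, in part perhaps for technical reasons.

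As background, mitochondria keep a ribosome of their own, which makes a small set of inner-membrane subunits of the respiratory chain and ATP synthase from mitochondrial DNA. Its proteins are nuclear genes, translated in the cytosol and imported, and assembled with mitochondrial rRNA. Many have relatives in bacterial ribosomes, while others were added in the mitochondrial lineage. Myeloid leukemia cells are known to depend on mitochondrial translation, and MYC and the NRF factors are known activators of mitochondrial genes.

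All intensities are given as log2 of the deposited values, so a difference of -1 is a halving, and errors of differences are standard errors of the fit. A gene was called, and said to have risen or fallen, when limma's adjusted p (Benjamini-Hochberg over all 18193 genes, two-sided) was below 0.05. The main comparison averages the 5 RAS-OFF time groups and subtracts the RAS-ON mean. The members were among the brighter genes of these samples. Their median level over all arrays was 10.24 on the log2 scale, against 8.09 for all genes, and all 76 lay above the median of all genes. The brightest and the dimmest member are named only as intensities of their probe sets, since probe sets differ in how strongly they bind.

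Median intensities were 149.99 to 156.53 on all 15 arrays, and arrays of a group correlated at 0.990 to 0.998 over all genes. The Gapdh 3-prime minus 5-prime difference, a sign of RNA integrity, was 1.22 in RAS-OFF 96 h replicate 1 and 0.10 to 0.35 in the others. RAS-ON replicates 4 and 5 resembled each other more than they resembled replicates 1 to 3: the SD of the log2 difference was 0.17 between them and 0.24 to 0.30 across the split. The mouse Nras probe set, which the labels do not tie to the transgene, spanned 10.34 to 10.96 in RAS-OFF and 10.72 to 11.19 in RAS-ON samples. Summed intensities of 12 erythroid markers were 81396 to 103580 in RAS-OFF and 33970 to 41394 in RAS-ON samples, and all 12 rose. Summed intensities of 10 red pulp macrophage markers were 17191 to 23211 in RAS-OFF and 11569 to 16503 in RAS-ON samples, and 8 rose and 1 fell. The leukocyte gene Ptprc was bright in every sample, at 13.06 to 13.44 in RAS-OFF and 12.94 to 13.30 in RAS-ON. Of 8 leukemia and leukocyte identity genes, 2 rose and 3 fell, the 3 being Cd34, Cebpa and Spi1. Changes in this list ran from -1.95 to 0.43, with a median of -0.24. Summed intensities of the list were 12803.7 to 18662.5 in RAS-OFF and 15676.8 to 19818.5 in RAS-ON samples, and these ranges overlapped. All 6 azurophil granule markers fell, with summed intensities of 12366 to 18482 in RAS-OFF and 44192 to 60077 in RAS-ON samples. Of the other marker lists, 7 of 7 megakaryocyte and platelet genes, 6 of 9 late neutrophil genes and 5 of 7 T and natural killer cell genes rose and 0 fell, 6 of 8 genes of stroma and endothelium were higher and 1 was lower by the test, and 4 of 5 B cell genes fell and 1 rose. Their summed intensities in RAS-OFF, against RAS-ON samples, were 22883 to 27734 against 15747 to 20149 for megakaryocytes, 122821 to 155123 against 105687 to 123336 for late neutrophils, and 2708 to 4485 against 2014 to 2277 for T and natural killer cells. They were 12796 to 18425 against 11359 to 12042 for stroma and 1197 to 1540 against 1927 to 2019 for B cells. In these bulk samples, fewer cells of a type and less RNA per cell cannot be told apart, and the part of the cell mix in the results below was not tested.

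Messenger RNAs of the mitochondrial ribosome were mostly lower after NRASG12V was shut down. Of 76 members, 42 fell, 3 rose and 31 were not called, and 66 were below 0 whatever the test. These are 55.3% of the members lower and 3.95% higher, against a background of 28.7% of all genes lower and 20.1% higher. Among the brighter genes, with the dimmest 40% left out, the background was 36.3% lower and 27.4% higher. As 54.0% of genes were dimmer than the dimmest member, this background is not matched to the level of the members. The median change was -0.21 over the members and -0.04 over all genes. The falls were small: over the 42 members that fell, changes ran from -0.72 to -0.18, with a median of -0.35, which is 21.4% less intensity in RAS-OFF. In 24 members all 10 RAS-OFF samples lay below all 5 RAS-ON samples, against a background of 12% of genes, and in 0 members did all lie above, against 9.36%. Against RAS-ON replicates 1 to 3 alone, 34 members fell and the median of all 76 was -0.17, with 26.8% of all genes lower. Against replicates 4 and 5 alone, 49 fell and the median was -0.33, with 24.2% of all genes lower. The 2 arrays of a time differed more at 48, 84 and 96 h (SD of the log2 difference 0.19, 0.24 and 0.21) than at 60 and 72 h (0.15 and 0.16). Without replicate 1 at 48, 84 and 96 h, 40 members fell, with 25% of all genes lower.

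**Figure D1:**
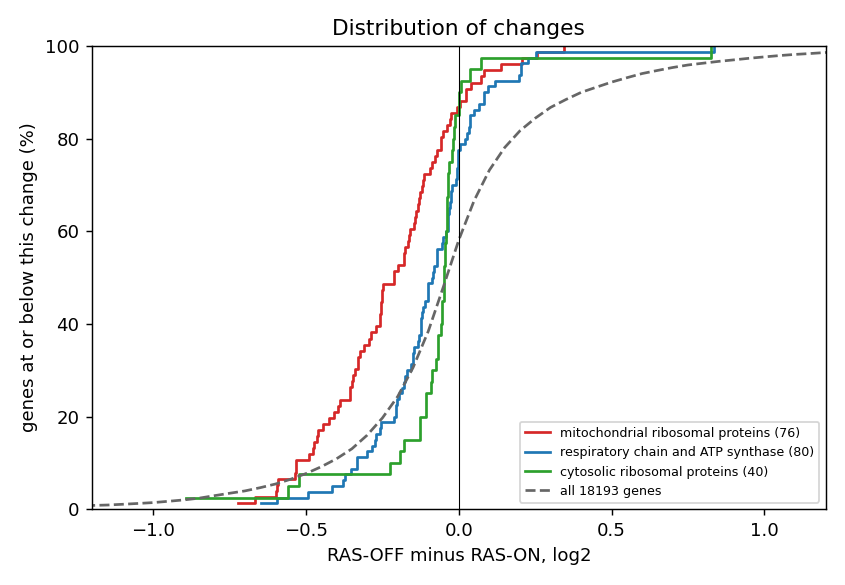
Cumulative share (percent, y axis) of genes at or below each RAS-OFF minus RAS-ON change (log2, x axis) for the 76 mitochondrial ribosomal protein genes, 80 respiratory chain and ATP synthase genes, 40 cytosolic ribosomal protein genes and all 18193 genes (dashed). The curve of the mitochondrial ribosomal protein genes lies to the left, with a median of -0.21, against -0.04 for all genes.

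The large subunit holds the peptidyl transferase centre and the exit tunnel. Members were classed by the current names of the ribosome's proteins, which count a protein as shared with bacteria or as mitochondria-specific; Mrps18a and Mrps18b count as mitochondria-specific there although both are related to bacterial S18. Of the 29 large-subunit members named as bacterial, 18 (62.1%) fell and 0 rose, with a median change of -0.25. The background for class counts is 28.7% of genes lower and 20.1% higher, or 36.3% and 27.4% with the dimmest 40% left out. Mrpl19, whose bacterial relative sits at the contact between the subunits, changed most of all 76 members. Its values were 9.83 and 9.74 at 48 h, 9.64 and 9.75 at 60 h, 9.73 and 9.56 at 72 h, 9.66 and 9.28 at 84 h, and 9.27 and 9.85 at 96 h of RAS-OFF, against 10.39, 10.36, 10.23, 10.39 and 10.40 in RAS-ON samples. The groups did not overlap, and the lowest values came from 1 array at 84 h and 1 at 96 h. The mean was 9.63 ± 0.21 in RAS-OFF (SD, n = 10) and 10.35 ± 0.07 in RAS-ON (SD, n = 5), a change of -0.72 ± 0.09 (limma, adjusted p = 6.34e-06), or 60.6% of the RAS-ON intensity. Its probe set is of a kind (_s_at) that can match more than 1 transcript.

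Mrpl4, whose bacterial relative lines the peptide exit tunnel, had the smallest adjusted p of the members described here. It had 10.49 and 10.41 at 48 h, 10.44 and 10.46 at 60 h, 10.32 and 10.39 at 72 h, 10.39 and 10.32 at 84 h, and 10.17 and 10.43 at 96 h of RAS-OFF, against 10.99, 10.90, 10.99, 11.02 and 11.00 in RAS-ON samples. The groups were well apart, and the values at the 5 times lay close together. The means were 10.38 ± 0.09 in RAS-OFF and 10.98 ± 0.05 in RAS-ON, a change of -0.60 ± 0.05 (adjusted p = 1.94e-07), or 66.2% of RAS-ON.

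Mrpl33, a small protein related to bacterial L33, was 10.79 at its lowest, 11.01 at the median and 11.07 at its highest in RAS-OFF, against 11.45, 11.48, 11.61, 11.55 and 11.55 in RAS-ON samples. The groups were apart here too, with a change of -0.54 ± 0.05 (adjusted p = 1.16e-06). Mrpl12, a protein of the flexible stalk that binds translation factors, was 10.55, 10.73 and 11.03 at its lowest, median and highest in RAS-OFF, against 11.06, 10.95, 10.99, 11.23 and 11.16 in RAS-ON samples. It fell by 0.31 ± 0.09 (adjusted p = 0.00763), and 8 of 10 RAS-OFF samples were below all RAS-ON samples. Mrpl1, with the dimmest probe set, fell by 0.26 ± 0.07 to 8.25 ± 0.12 in RAS-OFF, against 8.51 ± 0.10 in RAS-ON (adjusted p = 0.00545). Further falls in this class that left no overlap were those of Mrpl23, Mrpl2, Mrpl17, Mrpl11, Mrpl28 and Mrpl10, between -0.49 and -0.34; these 6 were chosen after their values were seen.

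Among the 20 large-subunit members named as mitochondria-specific, 9 (45%) fell and 3 (15%) rose, with a median of -0.16. Mrpl54 and Mrpl43 fell most. Mrpl54 was 9.41, 9.64 and 9.93 at its lowest, median and highest in RAS-OFF, against 10.31, 10.17, 9.94, 10.34 and 10.45 in RAS-ON samples. Its highest RAS-OFF and lowest RAS-ON sample nearly met, and the change was -0.59 ± 0.09 (adjusted p = 5.15e-05). Mrpl43 was 10.05, 10.21 and 10.40 in RAS-OFF, against 10.79, 10.70, 10.63, 10.89 and 10.73 in RAS-ON samples, a change of -0.53 ± 0.05 (adjusted p = 8.21e-07). Mrps30, named for the small subunit but found in the large one, fell to 9.88 ± 0.07 in RAS-OFF, against 10.14 ± 0.13 in RAS-ON, a change of -0.25 ± 0.06 (adjusted p = 0.00229). Mrpl58, which rescues stalled ribosomes by releasing the unfinished peptide, and Mrpl44, which carries an RNase III fold, were also without overlap, at -0.47 ± 0.06 and -0.35 ± 0.05; both were singled out after their values were seen. Mrpl51, with the brightest probe set, was 12.03 ± 0.10 in RAS-OFF and 11.96 ± 0.08 in RAS-ON and was not called (adjusted p = 0.268).

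The small subunit binds the messenger and decodes it. Of its 16 members named as bacterial, 8 (50%) fell and 0 rose, with a median of -0.20. Mrps10, whose relative lies in the head of the bacterial small subunit, was 9.47, 9.66 and 9.86 at its lowest, median and highest in RAS-OFF, against 10.32, 10.22, 10.09, 10.28 and 10.25 in RAS-ON samples. It fell by 0.60 ± 0.07 (adjusted p = 5.22e-06), to 66.1% of RAS-ON. Of the 10 mitochondria-specific small-subunit members, 7 (70%) fell and 0 rose, and the median of -0.34 was the lowest of the 4 classes. As above, 28.7% of all genes were lower and 20.1% higher. Whether the classes differ from each other was not tested.

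Mrps35 and Mrps27 led the mitochondria-specific class of the small subunit. Mrps35 was 9.25 and 9.05 at 48 h, 9.02 and 9.14 at 60 h, 9.08 and 9.02 at 72 h, 9.14 and 8.97 at 84 h, and 8.81 and 9.24 at 96 h of RAS-OFF, against 9.69, 9.70, 9.51, 9.93 and 9.87 in RAS-ON samples. All RAS-OFF samples were lower than all RAS-ON samples, with a change of -0.67 ± 0.08 (adjusted p = 7.76e-06). Mrps27, which carries pentatricopeptide repeats, a fold that binds RNA, was 8.01, 8.20 and 8.47 in RAS-OFF, against 8.70, 8.81, 8.55, 8.73 and 8.90 in RAS-ON samples. Its groups lay close but apart, and the change was -0.53 ± 0.06 (adjusted p = 7.85e-06). The 24 members without overlap were spread over all 4 classes: 9 named as bacterial and 5 as mitochondria-specific in the large subunit, and 4 and 6 in the small subunit.

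**Figure D2:**
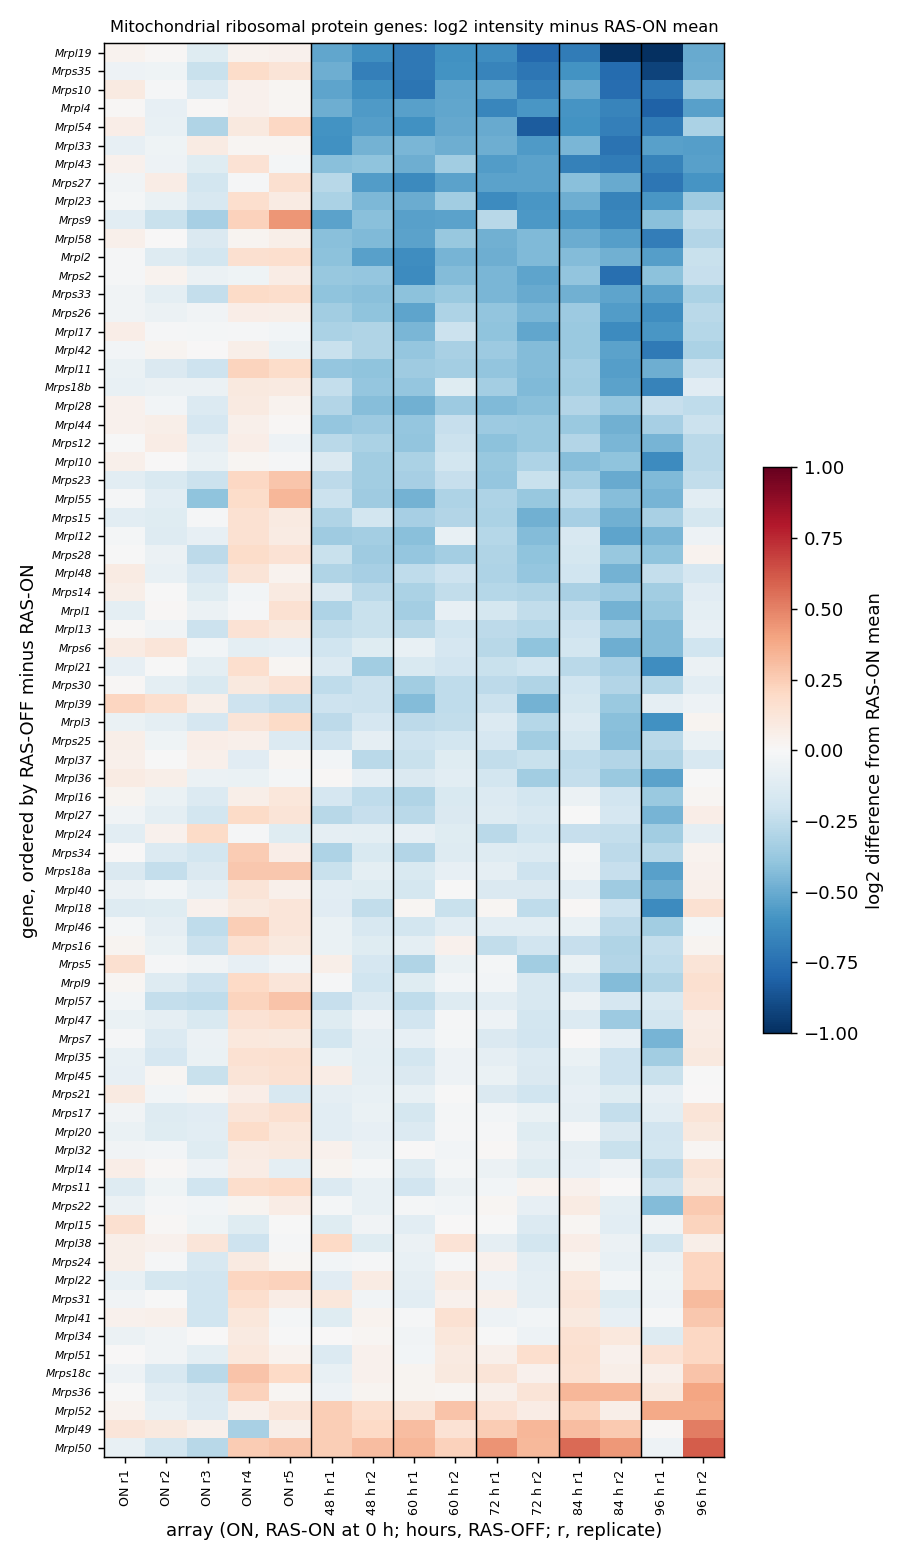
Log2 difference of each of the 76 members (rows) from its mean over the 5 RAS-ON samples, in each of the 15 samples (columns, by time). Members with negative values in the RAS-OFF columns fill most rows, and Mrpl50, Mrpl49 and Mrpl52 are the 3 that rose.

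**Figure D3:**
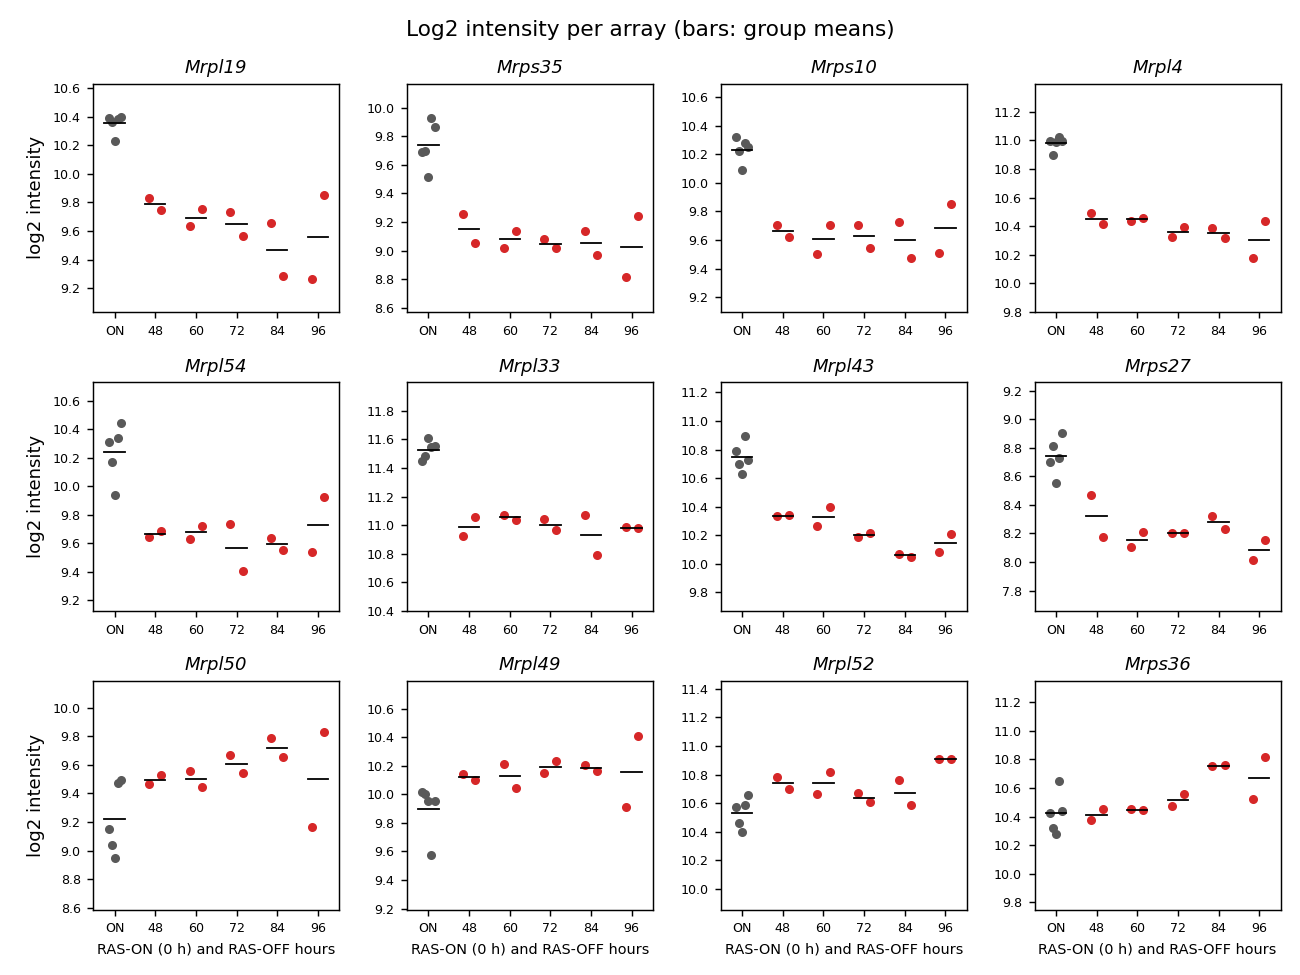
Log2 intensity (y axis) of the 8 members that fell most and the 3 that rose, per array (x axis, hours after the start of doxycycline, with RAS-ON at 0 h), with bars at the group means. The last panel shows Mrps36, which was not called over all times. In the 8 members that fell most, all 10 RAS-OFF samples lie below all 5 RAS-ON samples, as in 12% of all genes. In the 3 that rose, 7 to 9 of 10 lie above. The 8 and the 3 were picked by their change in this same comparison, so the separation is not a further result.

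**Figure D4:**
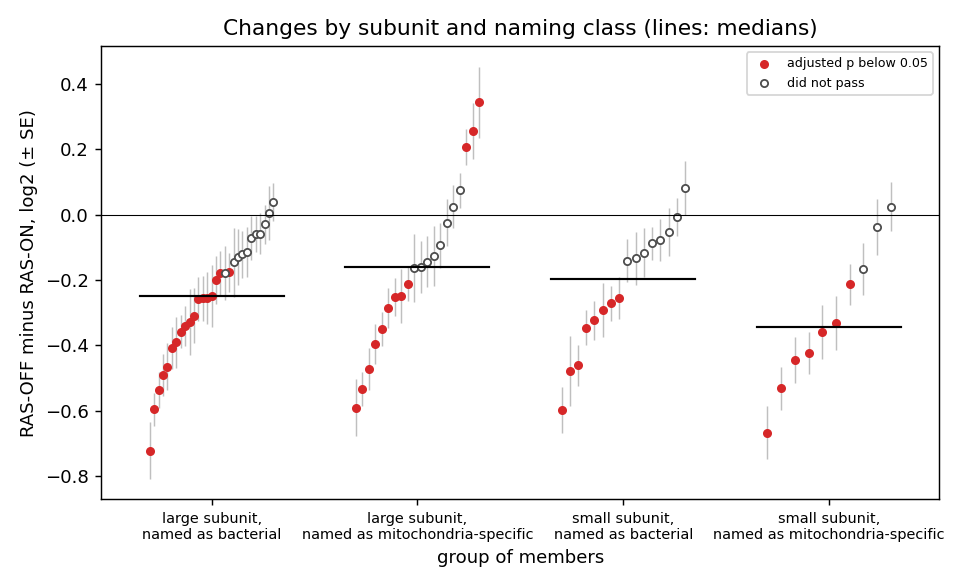
RAS-OFF minus RAS-ON change (log2) of every member except Mrps36, by subunit and naming class (named as bacterial or as mitochondria-specific), with class medians of -0.25 and -0.16 in the large subunit and -0.20 and -0.34 in the small subunit.

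Members of 1 ribosome did not all move one way. The 3 that rose were Mrpl50, Mrpl49 and Mrpl52, each a mitochondria-specific protein of the large subunit. Mrpl50 had 9.47 and 9.53 at 48 h, 9.55 and 9.45 at 60 h, 9.67 and 9.55 at 72 h, 9.78 and 9.65 at 84 h, and 9.17 and 9.83 at 96 h of RAS-OFF, against 9.15, 9.04, 8.94, 9.48 and 9.49 in RAS-ON samples. RAS-ON replicates 4 and 5 lay at the level of most RAS-OFF samples, and 7 of 10 RAS-OFF samples were above all RAS-ON samples. The change was 0.34 ± 0.11 (adjusted p = 0.0171), and it was lost without RAS-ON replicate 2 (adjusted p = 0.0528) or 3 (adjusted p = 0.0527), against replicates 4 and 5 alone, at 0.08 (adjusted p = 0.643), and with the mean of its 2 probe sets, at 0.18 (adjusted p = 0.0797). Its second probe set was at 0.02 (adjusted p over all probe sets = 0.849). Over the alternatives run, its adjusted p ranged from 0.000959 to 0.643.

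Mrpl49 was 9.91, 10.16 and 10.41 at its lowest, median and highest in RAS-OFF, against 10.02, 9.999, 9.95, 9.58 and 9.96 in RAS-ON samples. RAS-ON replicate 4 stood below the other RAS-ON samples, and 9 of 10 RAS-OFF samples were above all 5. The change was 0.26 ± 0.09 (adjusted p = 0.0221), and it was lost without RAS-ON replicate 4, at 0.18 (adjusted p = 0.0685), against replicates 1 to 3 alone, at 0.17 (adjusted p = 0.12), and with the replicate number as a block, at 0.15 (adjusted p = 0.278). That block gives RAS-ON replicates 3, 4 and 5 terms of their own, so it compares RAS-OFF with RAS-ON replicates 1 and 2 only. For Mrpl49, the lowest adjusted p over the alternatives was 0.0036. Mrpl52 was 10.59, 10.73 and 10.91 in RAS-OFF, against 10.57, 10.46, 10.40, 10.58 and 10.66 in RAS-ON samples, and 8 of 10 RAS-OFF samples were above all RAS-ON samples. Its change of 0.21 ± 0.06 (adjusted p = 0.0065) was lost only against RAS-ON replicates 4 and 5 alone, at 0.12 (adjusted p = 0.203), among the alternatives run. The other probe sets of Mrpl52 were higher by value, at 0.09, 0.18 and 0.20, and none was called (adjusted p over all probe sets = 0.364, 0.149 and 0.0931).

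The 3 genes related to bacterial S18 differed in their values. Each mitochondrial ribosome holds all of their products, Mrps18a in the large subunit and Mrps18b and Mrps18c in the small one. Mrps18b was 9.11, 9.41 and 9.66 at its lowest, median and highest in RAS-OFF, against 9.70, 9.72, 9.72, 9.87 and 9.87 in RAS-ON samples. It fell by 0.36 ± 0.08 (adjusted p = 0.00232), with no overlap. Mrps18a was 9.33, 9.75 and 9.92 in RAS-OFF, against 9.73, 9.64, 9.73, 10.14 and 10.15 in RAS-ON samples, and Mrps18c was 10.89, 11.02 and 11.25 in RAS-OFF, against 10.91, 10.80, 10.69, 11.24 and 11.16 in RAS-ON samples. In both, RAS-ON replicates 4 and 5 lay above replicates 1 to 3. Their changes, -0.16 ± 0.10 (95% interval -0.39 to 0.06) and 0.08 ± 0.08 (-0.10 to 0.26), were not called. Against RAS-ON replicates 4 and 5 alone Mrps18a fell by 0.43 (adjusted p = 0.00918), and against replicates 1 to 3 alone Mrps18c rose by 0.24 (adjusted p = 0.0092). A difference between the 3 genes was not tested.

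Of the 31 members that were not called, 1 had an unadjusted p below 0.05, and 22 had a 95% interval of the change within 0.3 log2 units of 0. The intervals of the other 9 reached below -0.3. Mrps36 was one of the 31. Although named for the small subunit, its product is now known as part of the oxoglutarate dehydrogenase complex. It was 10.38, 10.50 and 10.82 at its lowest, median and highest in RAS-OFF, against 10.42, 10.32, 10.28, 10.65 and 10.44 in RAS-ON samples. Values at 84 h, 10.75 and 10.76, were above all RAS-ON samples, and the call was at that time only, at 0.33 ± 0.10 (adjusted p = 0.0171). Over all times its change was 0.14 ± 0.07 (adjusted p = 0.0996). It was called in 4 alternatives: without RAS-ON replicate 4, at 0.19 (adjusted p = 0.0167), without RAS-OFF 96 h replicate 1, at 0.17 (adjusted p = 0.0404), against RAS-ON replicates 1 to 3 alone, at 0.22 (adjusted p = 0.0141), and with array weights, at 0.16 (adjusted p = 0.0489).

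Probe sets of 1 gene did not always give the same change. The 76 members had 156 probe sets with 1 gene symbol, and 42 members had more than 1. Of 45 other probe sets of members that fell, 33 were lower by value, 20 were lower and called, and 2 were higher and called. The last 2 belonged to Mrpl17 and Mrpl33. Mrpl17, a large-subunit protein with a bacterial relative, fell by 0.41 ± 0.06 on its brightest probe set, which was 10.25 ± 0.14 in RAS-OFF and 10.65 ± 0.04 in RAS-ON, while a second one was higher by 0.26 (adjusted p over all probe sets = 0.00672) and the remaining one, at 0.05, was not called. With the mean of these 3 probe sets, the Mrpl17 change was -0.03 (adjusted p = 0.582). The second probe set of Mrpl33 was higher by 0.20 (adjusted p = 0.0095), at a mean level of 6.68, against 11.17 for the brightest one. Some members that were not called also had other probe sets that were, by limma over all probe sets. Those of Mrpl57 (0.41, adjusted p = 0.00678) and Mrps21 (0.40, adjusted p = 0.0057) were higher. Lower ones belonged to Mrpl15 (-1.04, adjusted p = 0.00463, and -0.25, adjusted p = 0.0174) and Mrpl27 (-0.27, adjusted p = 0.0357).

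To show the letters that lie before genes that fell and genes that rose, the start regions of 6 members are printed: the 3 largest falls for which RefSeq (GRCm38.p6) gave a window, and the 3 rises. Each window runs 5′ to 3′ on the gene's strand from 250 bases before to 50 bases after the start. Capitals mark matches on either strand to 4 motifs searched as plain letters: GCGCA, any base and GCGC for NRF1, CCGGAAG for ETS factors, AAGATGGC for YY1 and CACGTG for the E-box that MYC binds. The falls are Mrps10 (chr17:47368947-47369246, plus strand), Mrpl33 (chr5:31613701-31614000, plus strand) and Mrpl43 (chr19:45006393-45006692, minus strand).
Mrps10: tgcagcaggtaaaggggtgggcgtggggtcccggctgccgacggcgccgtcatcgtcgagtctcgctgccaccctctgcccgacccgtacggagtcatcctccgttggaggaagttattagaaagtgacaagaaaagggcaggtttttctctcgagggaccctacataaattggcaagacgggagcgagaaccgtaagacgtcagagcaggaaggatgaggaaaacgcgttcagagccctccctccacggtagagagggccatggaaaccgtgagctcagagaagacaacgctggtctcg
Mrpl33: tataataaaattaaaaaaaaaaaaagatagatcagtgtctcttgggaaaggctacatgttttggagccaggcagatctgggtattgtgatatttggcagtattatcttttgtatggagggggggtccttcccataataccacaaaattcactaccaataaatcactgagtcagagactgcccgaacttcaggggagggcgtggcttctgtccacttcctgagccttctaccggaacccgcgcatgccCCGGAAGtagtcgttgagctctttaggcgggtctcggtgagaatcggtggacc
Mrpl43: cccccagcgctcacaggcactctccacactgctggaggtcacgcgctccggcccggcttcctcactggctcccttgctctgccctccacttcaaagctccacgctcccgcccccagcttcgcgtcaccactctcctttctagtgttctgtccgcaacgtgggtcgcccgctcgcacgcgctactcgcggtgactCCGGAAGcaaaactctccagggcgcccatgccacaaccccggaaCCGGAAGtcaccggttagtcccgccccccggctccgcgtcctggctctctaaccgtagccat
The rises are Mrpl50 (chr4:49521034-49521333, minus strand), Mrpl49 (chr19:6057706-6058005, minus strand) and Mrpl52 (chr14:54426659-54426958, plus strand).
Mrpl50: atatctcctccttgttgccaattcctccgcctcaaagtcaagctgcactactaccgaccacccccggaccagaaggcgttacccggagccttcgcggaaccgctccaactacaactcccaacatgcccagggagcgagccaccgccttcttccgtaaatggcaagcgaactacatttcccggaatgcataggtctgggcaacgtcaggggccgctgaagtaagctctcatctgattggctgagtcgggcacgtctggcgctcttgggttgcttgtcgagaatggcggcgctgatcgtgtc
Mrpl49: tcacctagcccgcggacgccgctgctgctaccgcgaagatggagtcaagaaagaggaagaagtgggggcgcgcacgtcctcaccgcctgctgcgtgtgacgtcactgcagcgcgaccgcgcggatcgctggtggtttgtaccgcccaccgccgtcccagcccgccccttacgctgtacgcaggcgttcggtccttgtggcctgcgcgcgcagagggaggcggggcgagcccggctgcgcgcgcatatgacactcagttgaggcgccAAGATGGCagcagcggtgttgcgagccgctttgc
Mrpl52: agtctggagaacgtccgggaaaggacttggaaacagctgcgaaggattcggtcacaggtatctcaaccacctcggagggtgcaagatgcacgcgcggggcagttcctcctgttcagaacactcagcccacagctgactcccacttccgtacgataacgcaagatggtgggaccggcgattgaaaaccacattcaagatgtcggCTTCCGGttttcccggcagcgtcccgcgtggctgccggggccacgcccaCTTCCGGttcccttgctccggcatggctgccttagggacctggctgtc
Mrpl33, Mrpl43 and Mrpl52 hold the ETS letters, read on the other strand in Mrpl52, Mrpl49 holds the YY1 letters just after its start, and Mrps10 and Mrpl50 hold none of the 4. Falls and rises each include windows with and without a match.

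Windows were found for 67 members, 73 windows on 16 chromosomes. The ETS letters were in 34.2% of them, against 8.86% of 32851 windows of all genes. The NRF1 letters were in 16.4%, against 4.6%, and the YY1 letters in 16.4%, against 2.75%. The E-box was in 9.59%, against 7.15%. Any of the 4 was in 61.6%, against 20.2%, and ETS and YY1 matches overlapped in 0 windows of members. Windows of members that fell held the ETS letters in 31.7%, against 37.5% of members that did not fall, the NRF1 letters in 14.6%, against 18.8%, the YY1 letters in 12.2%, against 21.9%, and the E-box in 12.2%, against 6.25%. These shares describe letters in the windows and were not tested.

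The members were already low at the earliest time measured. At 48 h, 22 members fell and 0 rose, against a background of 13.7% of genes in each direction, and the median change was -0.21. At 60 h, 25 fell and 0 rose (background 14.2% lower and 11.5% higher), with a median of -0.20. At 72 h, 31 fell and 0 rose (background 18.3% and 13.4%), with a median of -0.22. At 84 h, 34 fell and 2 rose, Mrpl50 at 0.50 and Mrps36 at 0.33 (background 21.8% and 15%), with a median of -0.28. At 96 h, 28 fell and 1 rose, Mrpl52 at 0.38 (background 20.9% and 16.7%), with a median of -0.22. These 5 comparisons share the RAS-ON samples. The median of all genes lay between -0.07 and -0.02 at every time.

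Counts at single times rest on 2 arrays and moved when 1 of them was left out. Such a fit keeps 1 array at that time and has less data for every gene. The share of all genes called in these fits was not counted, so the shifts are not a result about the members. All 42 members that fell over all times were below 0 at each of the 5 times. They were picked by the mean of these same times, so this follows in large part from that choice. Of the 42, 20 were called at each time. Another 4 were called in the mean and at no single time. For 22 of the 42 the lowest time was 84 h, for 8 it was 72 h, for 7 it was 96 h, for 5 it was 60 h, and for 0 it was 48 h. How often other genes with a called fall show these patterns was not counted.

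Between 48 and 96 h, no slope of a member passed limma's test (0 of 76, with 6 at an unadjusted p below 0.05), against a background of 8.75% of genes falling and 5% rising. Slopes ran from -0.07 to 0.08 log2 units per 12 h, with a median of -0.01. Mrpl43 at -0.07 ± 0.02 (adjusted p = 0.0554) and Mrps36 at 0.08 ± 0.03 (adjusted p = 0.0566) came nearest. Without RAS-OFF 96 h replicate 2, 4 slopes were called, without RAS-ON replicate 3 or 4 there were 2, and without RAS-OFF 96 h replicate 1 there was 1. Mrpl19 differed from RAS-ON by -0.57 at 48 h and then, time by time, by -0.66, -0.71, -0.88 and -0.80 (each ± 0.13), and its slope was not called (adjusted p = 0.23). Mrps10 stayed between -0.63 and -0.55 at all 5 times.

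Sample by sample, the members moved together. The median deviation of the members from their RAS-ON means was -0.20 and -0.21 at 48 h, -0.26 and -0.14 at 60 h, -0.20 and -0.25 at 72 h, -0.18 and -0.36 at 84 h, and -0.36 and -0.03 at 96 h of RAS-OFF, against -0.01, -0.04, -0.13, 0.10 and 0.08 in RAS-ON samples. In 9 of 10 RAS-OFF samples it was below every RAS-ON sample, and 96 h replicate 2 lay within their range. The 2 samples at 96 h differed most, and the lower one was replicate 1, the array with the Gapdh difference of 1.22; its part in the members' values was not tested. Within RAS-ON, 62 of 76 members (81.6%) were higher in the mean of replicates 4 and 5 than in that of replicates 1 to 3, against 53.1% of all genes. With group means removed, the median correlation over 2850 pairs of members was 0.64, and 92.8% of pairs were above 0, against 0.03 and 52.7% over all pairs of the 18193 genes and 0.02 and 51.4% with the dimmest 40% left out, over 15 samples with 9 residual degrees of freedom. Members share the same arrays, so these correlations describe the samples and are not replicates of a result.

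**Figure D5:**
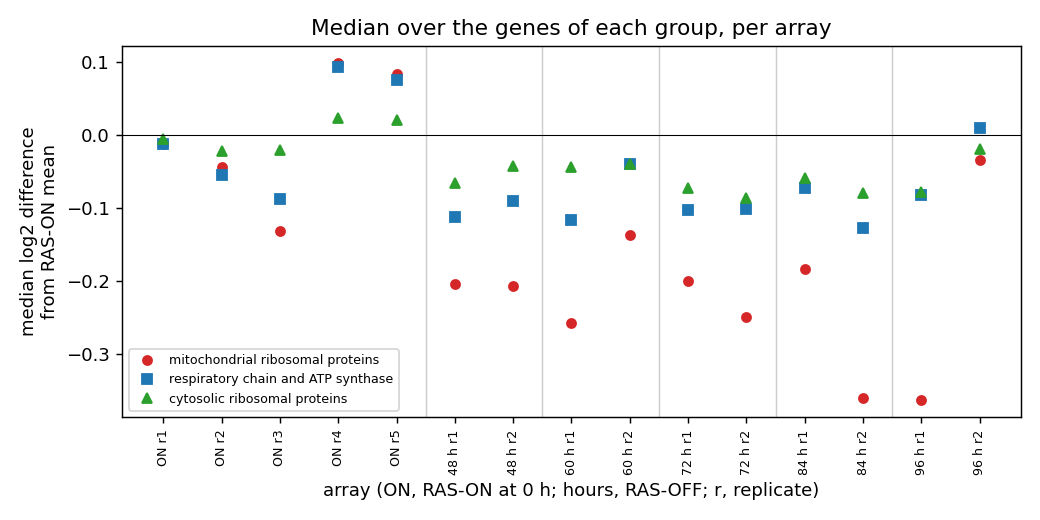
Median log2 difference from the RAS-ON mean (y axis) in each of the 15 arrays (x axis) for the mitochondrial ribosomal protein genes, the respiratory chain and ATP synthase genes and the cytosolic ribosomal protein genes. The mitochondrial ribosomal protein genes lie at -0.36 to -0.14 in 9 of the 10 RAS-OFF arrays and at -0.03 in 96 h replicate 2.

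Other genes of mitochondrial translation, from lists chosen by function, moved in both directions. Of 4 measured mitochondrial ribosome proteins with other names, 0 fell and 1 rose: Dap3, a GTP-binding protein of the small subunit, was 10.87, 10.95 and 11.25 at its lowest, median and highest in RAS-OFF, against 10.82 to 10.91 in RAS-ON samples (0.14 ± 0.05, adjusted p = 0.0161). The background for these counts is 28.7% of all genes lower and 20.1% higher. Of 25 genes of ribosome assembly and rRNA modification, 12 (48%) fell and 5 (20%) rose, with a median of -0.13. Eral1, a GTPase that chaperones the small-subunit rRNA, was 8.51 to 8.90 in RAS-OFF and 9.35 to 9.57 in RAS-ON samples, a change of -0.69 ± 0.05. Ddx28, a helicase of large-subunit assembly, was 8.43 to 8.67 in RAS-OFF and 8.95 to 9.41 in RAS-ON samples, a change of -0.60 ± 0.08. Mrm1, a methyltransferase of the large-subunit rRNA, ran the other way, with 9.27 to 9.98 in RAS-OFF, 8.55 to 8.87 in RAS-ON and a change of 0.91 ± 0.07.

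Of 12 translation factors, 4 (33.3%) fell, near the background, and 1 rose, with a median of -0.17. Mtfmt, which formylates the initiator tRNA, changed by -0.39 ± 0.06, and Oxa1l, which inserts new proteins into the inner membrane, by -0.30 ± 0.07. The initiation factor Mtif2 changed by 0.38 ± 0.08, with all 10 RAS-OFF samples above all RAS-ON samples. Of 16 mitochondrial aminoacyl-tRNA synthetases, 7 (43.8%) fell and 1 rose, with a median of -0.10, led by Sars2 at -0.49 ± 0.14 and Ears2 at -0.48 ± 0.06. Of 12 genes of mitochondrial DNA transcription and upkeep, 7 (58.3%) fell and 2 rose, with a median of -0.16. Tfb2m, a factor that mitochondrial RNA polymerase needs to start, changed by -0.44 ± 0.09 and the terminator Mterf1a by 0.40 ± 0.05.

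Of 10 known regulators of mitochondrial genes, 3 fell and 2 rose, a share near the background of 28.7% lower and 20.1% higher. Myc was 9.93, 10.16 and 10.38 at its lowest, median and highest in RAS-OFF, against 10.07 to 10.77 in RAS-ON samples, and the groups overlapped. It fell by 0.41 ± 0.10 (adjusted p = 0.00348), which did not hold when replicates 4 and 5 alone stood for RAS-ON (adjusted p = 0.157). Esrra, a nuclear receptor for mitochondrial genes, was 8.54 to 8.93 in RAS-OFF and 8.97 to 9.14 in RAS-ON samples and fell by 0.33 ± 0.05 (adjusted p = 3.37e-05). Nrf1, the factor behind the NRF1 letters above, rose by 0.27 ± 0.06 (adjusted p = 0.00212), and the coactivator Pprc1 rose by 0.35 ± 0.09 (adjusted p = 0.00494). Gabpa, an ETS factor also called NRF2, was at 0.01 ± 0.08, and the coactivators Ppargc1a and Ppargc1b were at 0.02 ± 0.05 and -0.01 ± 0.05,, and none of these 3 was called; their signs turned under some settings.

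Set beside the listed genes of the cytosolic ribosome and of the respiratory chain, the members had the larger share of falling genes. Among 40 genes for cytosolic ribosomal proteins there were 9 that fell and 1 that rose, and the median was -0.05. These 40 were picked by a name pattern among genes measured under 1 gene symbol, and are only part of the cytosolic ribosome. Rpl37 fell by 0.89 and Rps25 by 0.56. Of 80 nuclear genes for respiratory chain and ATP synthase subunits, 26 fell and 5 rose, with a median of -0.09. Sdhc fell by 0.65 ± 0.11 and Atp5g2 by 0.59 ± 0.06, and Cox6b2 rose by 0.84 ± 0.07. A difference between the 3 lists was not tested, and the counts describe them beside a background of 28.7% lower and 20.1% higher.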

How the data were processed

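Gene expression was measured in 15 samples of leukemic mouse spleen: 10 RAS-OFF and 5 RAS-ON. Per the labels' protocols, Qiagen RNeasy gave the RNA, which MessageAmp III amplified before biotin labelling. The deposited intensity values, 1 per probe set and array on a linear scale, are the authors' RMA output, per the submitters' processing notes, which name no version here. RMA gives all arrays a like distribution, so a shift of most genes would not show. Arrays have no read depth, and their number limits the precision.

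Log2 of each intensity was taken. Of 45101 probe sets, 34945 had 1 gene symbol in the platform annotation, 932 several and 9160 none, and 64 were controls. Each of 18193 genes was represented by its brightest probe set, with no filter on dim genes. limma 3.58.1 in R 4.3.3 fitted 1 mean per group with default eBayes. The comparisons were all 5 RAS-OFF times averaged against RAS-ON, every single time against RAS-ON, and the change per 12 h along the RAS-OFF means, with Benjamini-Hochberg adjustment over all genes and a threshold of 0.05. Groups came from the sample titles. On simulated data with 18193 genes for RAS-OFF minus RAS-ON, the test found 51% of 100 genes shifted by 0.3 and 96% of 100 shifted by 0.6, and called 9 others. Only those genes were shifted there, and noise was drawn separately for each gene. In the real samples 28.7% of genes were lower and 20.1% higher, and members moved together. The simulated shares therefore do not say how many real changes of these sizes would be called.

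Named members were the 8 largest falls and up to 8 rises among called members, Mrpl12, Mrps18a, Mrps18b, Mrps18c, Mrps30 and Mrps36 whatever their values, the brightest and dimmest, members with probe sets called in opposite directions, and up to 2 called at 1 time only. Other lists gave up to 3 called genes each, and 7 regulators whatever their values. The members, lists, rules and alternatives were chosen with earlier results of these data known. Same-numbered samples deviated together in 3 of 15 pairs of groups (r from -0.23 to 0.22, over 0.1 in those 3), so the numbers were not taken to pair samples.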

Additional observations from a re-analysis of the deposited data

Results flagged for a closer look

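Dixon's test at the 95% level was run 21 times, on the RAS-ON values of each named member and on the median deviation of all members. In 4 of these, all of them single genes, 1 of the 5 RAS-ON samples lay far from the others. Chance alone would give about 1 in 20. Mrpl19 was 10.23 in RAS-ON replicate 3 and 10.36 to 10.40 in the other 4. Mrpl4 was 10.90 in RAS-ON replicate 2 and 10.99 to 11.02 in the others. Mrpl49 was 9.575 in RAS-ON replicate 4 and 9.951 to 10.02 in the others, and its rise was not called without that sample. Mrpl17 was 10.72 in RAS-ON replicate 1 and 10.63 to 10.64 in the others.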

How the results depend on the processing

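Over 27 alternatives, the count of members that fell, 42 in the report, ran from 31 to 49, and from 38 to 48 with 1 array left out. The lowest came with the replicate block, in which only RAS-ON replicates 1 and 2 enter the comparison (25.7% of all genes lower). The highest came with RAS-ON replicates 4 and 5 only (24.2% of all genes lower). With 1 array left out, 25.3% to 29% of all genes were lower. Of the 42, 23 were called lower in every alternative. The median change of all 76 members, -0.21, ran from -0.33 to -0.16, and from -0.24 to -0.19 with 1 array left out. The count of members that rose, 3, was 1 against RAS-ON replicates 4 and 5 only and 2 to 4 with 1 array left out. Without replicate 1 at 48 h, 84 h and 96 h, 14 members were called at 48 h and 11 at 96 h, where these times keep 1 array each, assumed to vary like the other groups. With 1 array left out, calls ranged from 7 to 27 at 48 h, 9 to 28 at 60 h, 19 to 34 at 72 h, 16 to 41 at 84 h and 13 to 40 at 96 h. For the slope, 2 members were called with the dimmest 40% of genes left out, with the mean of probe sets, with array weights, with the replicate block, with RAS-ON replicates 1 to 3 only or 4 and 5 only, and with a regression within RAS-OFF, and 0 to 4 with 1 array left out. The cause was not tested.

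The replicate block gives RAS-ON replicates 3, 4 and 5 terms of their own, since no RAS-OFF sample has these numbers. Only RAS-ON replicates 1 and 2 then set the RAS-ON level. With the block, the calls of Mrpl49 (0.15, adjusted p = 0.278), Mrpl12 (adjusted p = 0.155), Mrps18b (adjusted p = 0.0722) and Mrpl1 (adjusted p = 0.0858) were lost. Mrpl12 was also not called against RAS-ON replicates 1 to 3 (adjusted p = 0.0699). With the block, 31 of the 42 falls remained. Esrra was not called with the mean of probe sets (adjusted p = 0.112), nor Sars2 against RAS-ON replicates 4 and 5 only (adjusted p = 0.435). Dap3 was not called in 4 of the alternatives. Signs turned in 6 genes, 5 of them not called in the report. Mrps18a was 0.032 with the block and 0.015 against RAS-ON replicates 1 to 3, and Mrps18c was -0.16 against replicates 4 and 5. Rpl27a, the cytosolic ribosomal protein gene that rose (0.83 ± 0.26), was -0.045 against replicates 4 and 5 and was not called without RAS-ON replicate 1 (adjusted p = 0.0646) or 2 (adjusted p = 0.0597). Gabpa was -0.043 with the mean of probe sets, -0.016 with arrays centred on their medians, -0.065 against replicates 4 and 5, -0.027 without both 96 h arrays, and -0.034 to 0.047 with 1 array left out. Ppargc1a was -0.00264 with the block, -0.0044 without those 3 arrays, -0.012 against replicates 4 and 5, and -0.0072 to 0.043 with 1 array left out. Ppargc1b was 0.0012 with weights, 0.023 with the block, 0.013 against replicates 4 and 5, and -0.025 to 0.018 with 1 array left out. Leaving out both 96 h arrays was chosen after seeing the data. Dim probe sets limit what can be seen, and brighter signal stands further over background.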

Other observations

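Probe sets that carry several gene names were outside the members, and 3 names of mitochondrial ribosomal proteins occur there. The probe set shared by Nme3 and Mrps34 was 10.55 ± 0.20 in RAS-OFF (SD, n = 10) and 9.68 ± 0.19 in RAS-ON (SD, n = 5), higher by 0.87 ± 0.07 (limma, adjusted p over all probe sets = 5.84e-07), while the probe set named for Mrps34 alone was at -0.17 ± 0.08 and was not called (adjusted p = 0.095). The probe set shared by Ccdc142 and Mrpl53 was 11.06 ± 0.08 in RAS-OFF and 10.63 ± 0.08 in RAS-ON, higher by 0.43 ± 0.05 (adjusted p = 1.02e-05). The brighter of 2 probe sets shared by Gm6238 and Mrpl30 was 12.02 ± 0.13 in RAS-OFF and 12.07 ± 0.16 in RAS-ON, and neither was called. Which gene these signals come from was not tested.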
